A study of Mus musculus with 6 samples.

Results

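Matrix metalloproteinases (MMPs) are zinc-dependent enzymes that cut collagens, elastin and other matrix proteins, and the tissue inhibitors of metalloproteinases (Timps) bind and block them. Most are secreted as inactive precursors that other proteases, or MMPs themselves, convert to active enzymes. Neutrophils store Mmp8 and Mmp9 in granules, and macrophages are a known lung source of Mmp12. The 8 genes described here are Mmp8, Mmp9, Mmp12, Mmp13, Mmp14, Mmp19, Timp1 and Timp2, taken by name from the 20882 gene columns of the deposited tables, where all 8 were found. They were followed across marker-defined leukocyte classes of the lung after PD-1 agonist or isotype treatment.

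The study sorted live CD45+ lung cells of humanized PD-1 mice, 6 to 8 weeks old, and profiled them by droplet single-cell RNA sequencing. One group of mice received a PD-1 agonist and the other an isotype, and both carried the humanized PD-1. The series title places the work in neutrophilic asthma, but the sample labels name no challenge agent, dose or time. Per the labels, cell hashing was used to mix 3 samples of each treatment, about 50000 cells a group. The tables hold 13728 PD-1 agonist and 12448 isotype barcodes, of which the authors' filter left 12216 and 11106.

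The 3 tables of a treatment were not separate sets of cells. Each pair of them shared 2373 to 2736 barcodes, and shared barcodes had a median cosine similarity of 0.93 to 0.947 between their profiles, against 0.469 to 0.494 for other barcodes. Tables of different treatments shared 3 to 13. Each barcode was therefore used once per treatment, which makes 1 pool per treatment. A test between treatments could not be made. The 95% intervals given in parentheses cover counting error only, not the spread between mice, and values of single tables are shown although the tables share cells. After removal of called doublets 11178 PD-1 agonist and 10299 isotype cells were kept, with median total counts of 2143 and 2455. Ptprc, which encodes CD45, had a count in 90.7% of agonist and 90.9% of isotype cells. Marker lists of cells outside the CD45 gate summed to 36.5 CPM (counts per 1000000) agonist and 34.2 CPM isotype for epithelial, 99.5 and 99.8 CPM for endothelial, 6.02 and 6.32 CPM for fibroblast, 1.65 and 0.654 CPM for erythroid, and 6.37 and 5.46 CPM for platelet markers. None of the listed markers found in the tables was at 0.

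Cells were clustered without any Mmp, Timp or Adam gene, and each class name ("-like") rests on listed markers that hold no member. The 17 classes include immature, mature and activated neutrophil-like cells, interstitial, Arg1 and alveolar macrophage-like cells, and monocyte-like, dendritic cell-like and lymphocyte-like classes. A cluster with nonclassical monocyte markers together with neutrophil genes, called the mixed monocyte cluster below, was kept apart (176 agonist and 215 isotype cells).

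Mmp13, Mmp12 and Mmp8 lie within 296 kb of each other on chromosome 9, in a stretch with 7 Mmp genes. Mmp13 spans chr9:7272514-7283331, Mmp12 chr9:7344381-7369499 and Mmp8 chr9:7558456-7568485 (mm10, all on the plus strand). The other members are Mmp9 at chr2:164940780-164955850, Mmp14 at chr14:54431612-54445364, Mmp19 at chr10:128790910-128800824 and Timp1 at chrX:20870166-20874735, all on the plus strand, and Timp2 at chr11:118301069-118355740 on the minus strand. Timp1 lies inside Syn1, and Mmp12 and Mmp19 overlap Mmp1b and Tmem198b with Gm47093, all on opposite strands. Whether counting used strand is not given in the sources used here, so the levels of these 3 members are uncertain to that extent. Of all 31-base words of their annotated transcripts, 4.24% for Mmp12, 2.26% for Mmp14 and 0.485% for Mmp19 also occurred in transcripts of other genes, and 0% for each of the other 5 members.

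The promoters of the chromosome 9 neighbours and of Timp1 are shown because Mmp8 and its neighbour Mmp12 had their highest levels in different classes, and Timp1, on another chromosome, in the same class as Mmp12. They are RefSeq sequences (GRCm38.p6, plus strand) from 250 bases before to 50 bases after the start, at chr9:7272264-7272563 for Mmp13, chr9:7347124-7347423 for Mmp12, chr9:7558179-7558478 for Mmp8 and chrX:20869916-20870215 for Timp1. Capitals mark TGANTCA (the AP-1 motif), TATAAA and AGGAAG (an ETS-type motif), searched on both strands. Mmp12 has another RefSeq start, with the window chr9:7344147-7344446, which is not shown.
Mmp13: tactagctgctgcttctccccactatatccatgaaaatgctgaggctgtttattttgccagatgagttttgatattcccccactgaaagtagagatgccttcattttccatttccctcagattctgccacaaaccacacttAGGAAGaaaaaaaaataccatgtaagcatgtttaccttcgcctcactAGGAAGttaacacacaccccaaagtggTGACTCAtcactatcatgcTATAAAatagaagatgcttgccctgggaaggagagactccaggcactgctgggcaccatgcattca
Mmp12: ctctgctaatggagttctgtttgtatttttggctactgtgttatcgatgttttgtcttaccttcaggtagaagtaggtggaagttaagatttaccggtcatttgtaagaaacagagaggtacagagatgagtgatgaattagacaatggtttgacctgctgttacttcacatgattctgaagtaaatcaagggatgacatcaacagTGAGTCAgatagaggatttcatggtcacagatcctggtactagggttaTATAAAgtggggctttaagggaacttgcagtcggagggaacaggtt
Mmp8: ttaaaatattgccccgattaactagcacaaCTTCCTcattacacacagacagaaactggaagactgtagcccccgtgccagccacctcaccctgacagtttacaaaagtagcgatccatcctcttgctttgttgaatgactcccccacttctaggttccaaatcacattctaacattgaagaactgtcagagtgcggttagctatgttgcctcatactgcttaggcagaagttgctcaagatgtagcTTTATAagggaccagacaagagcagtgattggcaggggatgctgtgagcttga
Timp1: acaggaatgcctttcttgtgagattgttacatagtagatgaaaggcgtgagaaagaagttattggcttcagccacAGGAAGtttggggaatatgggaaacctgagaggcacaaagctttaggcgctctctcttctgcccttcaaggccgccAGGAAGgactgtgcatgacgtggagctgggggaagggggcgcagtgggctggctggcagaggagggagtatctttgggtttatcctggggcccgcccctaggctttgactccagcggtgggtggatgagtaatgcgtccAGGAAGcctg

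TGANTCA began 35 bases before the start of Mmp13 and 44 bases before the shown start of Mmp12, and was not found in the Mmp8 and Timp1 windows or in the other Mmp12 window. It was present in 7.81% of 32851 promoters of the same length. TATAAA lay 16 bases before the start of Mmp13, 3 bases before that of Mmp8 on the minus strand and, in the shown Mmp12 window, at base 5 after the start. It was not found in the other Mmp12 window, and was in 13.6% of all promoters. AGGAAG was found in the Mmp13, Mmp8 and Timp1 windows, in the other Mmp12 window (87 bases before that start, on the minus strand) but not in the shown one, and in 35.4% of all. These are letters in the windows, not sites shown to be bound. Entries matched 6 of the 8 members; Mmp9 and Mmp19 are named only.

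**Figure D1:**
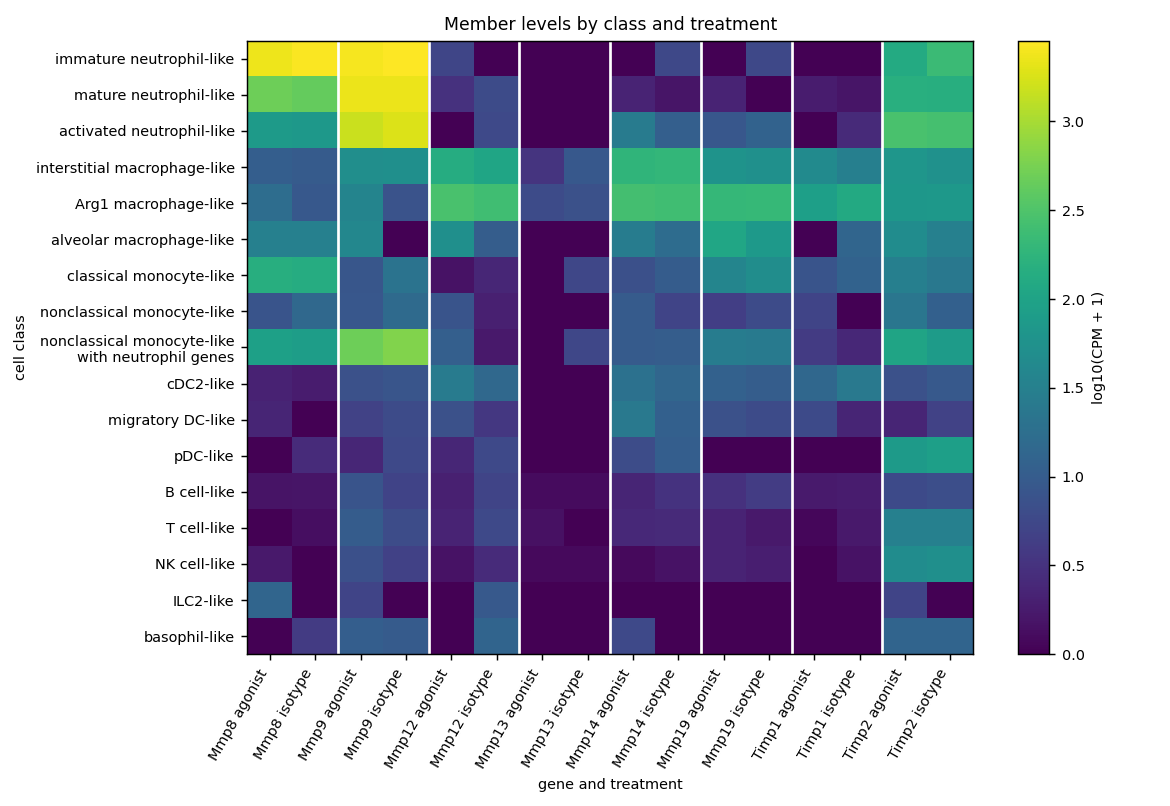
Colour gives log10(CPM + 1) for each gene and treatment (columns, PD-1 agonist left of isotype) in the 17 cell classes (rows). Mmp8 and Mmp9 are brightest in immature neutrophil-like cells, Timp2 in activated neutrophil-like cells, and Mmp12, Mmp14, Mmp19 and Timp1 in Arg1 macrophage-like cells.

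Mmp9, a gelatinase of neutrophil granules, was above all a neutrophil transcript in both pools. Mature neutrophil-like cells held 59.6% of agonist and 41.8% of isotype Mmp9 counts, and activated neutrophil-like cells 23.2% and 37.3%. Immature neutrophil-like cells had 2551 CPM (2350 to 2764) in the agonist and 2847 CPM (2626 to 3081) in the isotype pool. Mature neutrophil-like cells had 2279 CPM (2219 to 2340) in the agonist and 2238 CPM (2168 to 2309) in the isotype pool, with a log2 ratio (agonist over isotype) of 0.03 (-0.03 to 0.09). A count was seen in 91.8% of agonist and 91.1% of isotype mature neutrophil-like cells, and in 85.6% and 82.7% after cells were thinned to 1000 counts. For class averages the order immature, mature, activated held in both pools without overlap of neighbouring intervals. It did not hold for every cluster of a finer clustering (Leiden resolution 2). In the isotype pool the activated cluster led by Il1a and Cxcl2 had 2373 CPM (2290 to 2459). The mature clusters led by Slpi, Stfa2l1 and Retnlg had 2167 (2072 to 2266), 2004 (1855 to 2160) and 2545 (2413 to 2683) CPM. In the agonist pool the activated cluster had 1990 CPM and these mature clusters 2223, 1960 and 2406 CPM.

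Activated neutrophil-like cells carried less Mmp9 in the agonist pool, at 1511 CPM (1448 to 1576), than in the isotype pool, at 1868 CPM (1807 to 1932). The log2 ratio was -0.31 (-0.39 to -0.23). For this class the 3 agonist tables gave 1528, 1480 and 1498 CPM and the 3 isotype tables had 1899, 1889 and 1818 CPM. The tables of the pools did not overlap, but tables of the same pool share cells and are not replicates. A count was seen in 66.5% of agonist and 74.8% of isotype activated neutrophil-like cells, and in 56.6% and 63.9% after thinning. In the finer clustering both activated clusters had the lower value in the agonist pool. The cluster led by Il1a and Cxcl2 had 1990 (1901 to 2082) CPM in the agonist and 2373 (2290 to 2459) CPM in the isotype pool, and that led by Rab15 and Fnip2 599.7 (533 to 672) and 747 (678 to 821) CPM. S100a9, a calcium-binding protein abundant in neutrophils, was also lower in the agonist pool in this class, at 11170 CPM against 14030 CPM, and Mmp9 per 1000 S100a9 counts was 135 and 133.

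Over all kept cells Mmp9 had 259 CPM in the agonist and 253 CPM in the isotype pool, a log2 ratio of 0.03 (-0.01 to 0.08), and the 3 agonist tables gave 263, 258 and 253 CPM and the 3 isotype tables had 248, 266 and 239.6 CPM, which overlap. The interval included 0. The ratio was -0.11 with class shares of counts held equal between the pools, an alternative chosen after seeing the data, and -0.001 without isotype replicate 3.

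Classes other than neutrophils also had Mmp9 counts, given here beside their S100a9 level. The mixed monocyte cluster had 494 CPM in the agonist and 637 CPM in the isotype pool (log2 ratio -0.37 (-0.53 to -0.21)), beside S100a9 at 7464 and 5891 CPM. Without isotype replicate 2 this ratio was -0.20. Interstitial macrophage-like cells had 49.2 CPM in the agonist and 50.8 CPM in the isotype pool, beside S100a9 at 832 and 575 CPM. B cell-like cells, taken as the background class, had 6.96 CPM in the agonist and 3.89 CPM in the isotype pool and a count in 1.12% of agonist and 0.77% of isotype cells, with median total counts of 1475 and 1612. Per 1000 S100a9 counts they had 93.4 and 75.3 Mmp9 counts, and mature neutrophil-like cells 36.8 and 35.9. T cell-like cells had 9.25 CPM in the agonist and 5.34 CPM in the isotype pool (63 agonist and 44 isotype counts), beside S100a9 at 92.8 and 57.3 CPM. Their log2 ratio was 0.79 (0.22 to 1.38), but 0.14 without the cell filter and 1.47 without isotype replicate 2.

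Arg1 macrophage-like cells had 62 agonist and 12 isotype Mmp9 counts, a log2 ratio of 2.40 (1.49 to 3.43). For them the 3 agonist tables gave 38.5, 38.5 and 40.8 CPM and the 3 isotype tables had 2.8, 6.27 and 9.43 CPM. S100a9 stood at 828 CPM in the agonist and 118 CPM in the isotype pool, and of the Mmp9 counts 50% came from 5 agonist and 2 isotype cells. The ratio was 0.58 with called doublets kept and 0.37 without the cell filter. Classical monocyte-like cells had 16 agonist and 45 isotype counts and a log2 ratio of -1.41 (-2.33 to -0.56), which became 0.25 with called doublets kept. The part of neutrophil RNA or doublets in these values was not tested.

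Mmp8, the neutrophil collagenase, was highest in immature neutrophil-like cells, at 2353 CPM (2161 to 2559) in the agonist and 2726 CPM (2509 to 2956) in the isotype pool. These 48 agonist and 49 isotype cells held 23.1% and 29.5% of all Mmp8 counts. Among the neutrophil-like classes, mature cells followed with 496 CPM (468 to 525) in the agonist and 439 CPM (408 to 471) in the isotype pool, and then activated cells with 75.9 CPM (62.2 to 91.6) and 67.9 CPM (56.5 to 80.8). The intervals of these 3 classes did not overlap within either pool. Over all classes the classical monocyte-like cells, described below, and the mixed monocyte cluster (89.6 CPM in the agonist and 81.6 CPM in the isotype pool) ranked between mature and activated neutrophil-like cells, and the intervals of the mixed cluster and the activated class overlapped in both pools.

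Over all kept cells Mmp8 had 66.5 CPM in the agonist and 54.2 CPM in the isotype pool, a log2 ratio of 0.29 (0.21 to 0.38), and the 3 agonist tables gave 67.2, 58.8 and 63.3 CPM and the 3 isotype tables had 57.3, 49.5 and 51.8 CPM. All agonist tables were above all isotype tables, but tables of the same pool share cells and are not replicates. Mature neutrophil-like cells, which held 50.6% of agonist and 38.3% of isotype Mmp8 counts, were 14.2% of agonist cells (1590) and 10.3% of isotype cells (1063). With class shares of counts held equal between the pools the ratio was 0.07. In mature neutrophil-like cells alone it was 0.18 (0.04 to 0.31), and the 3 agonist tables gave 465, 479 and 529 CPM and the 3 isotype tables had 439, 431 and 424 CPM. In the 48 agonist and 49 isotype immature neutrophil-like cells it was -0.21 (-0.38 to -0.04), the opposite direction. Of the Mmp8 counts of that class, 50% came from 10 agonist and 13 isotype cells.

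Within the mature neutrophil-like class, Mmp8 differed more between finer clusters than between treatments. The cluster led by Retnlg and Cstdc4 (697 agonist and 284 isotype cells) had 740 (692 to 790.4) CPM in the agonist and 807 (733 to 886) CPM in the isotype pool. That led by Slpi and G0s2 (745 agonist and 607 isotype cells) had 278 (247 to 313) and 271 (238 to 308) CPM. That led by Stfa2l1 and the interferon-induced Ifit1 (157 agonist and 187 isotype cells) had 404 (327 to 492) and 512 (438 to 594) CPM. The intervals of the treatments overlapped in each of these 3 clusters.

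**Figure D2:**
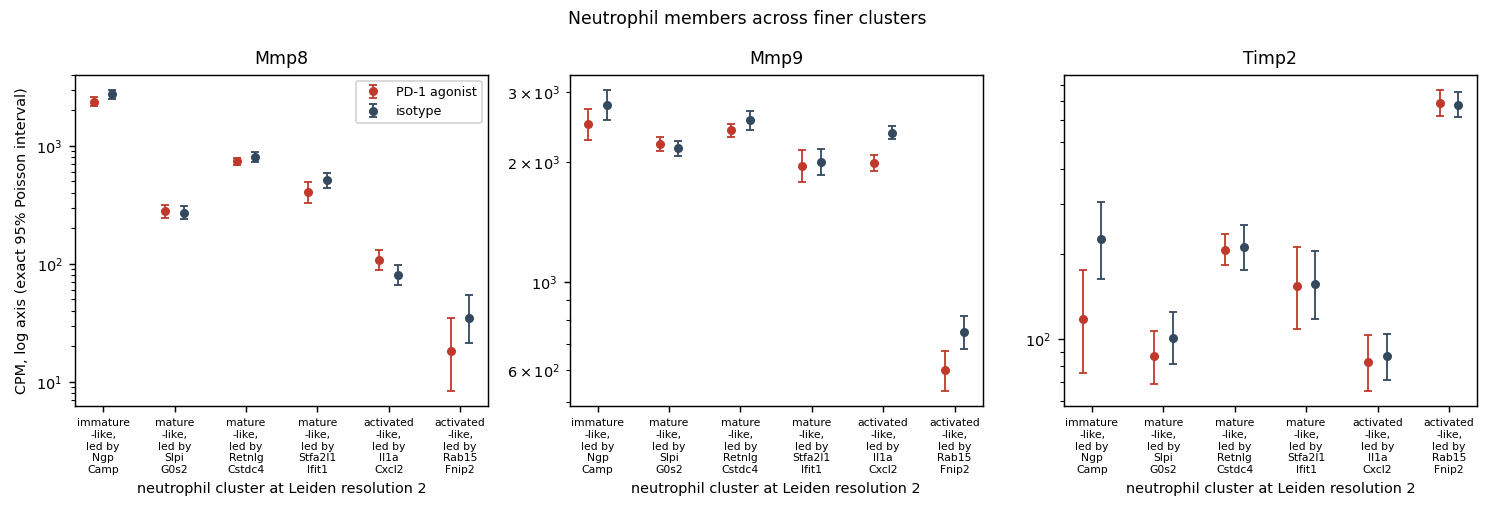
Points give CPM (log axis) of Mmp8, Mmp9 and Timp2 in the 6 neutrophil-like clusters of the finer clustering, PD-1 agonist (red) left of isotype (blue), with exact 95% Poisson intervals. Mmp8 and Mmp9 are lowest, and Timp2 highest (689.8 CPM agonist and 679 CPM isotype), in the activated cluster led by Rab15 and Fnip2.

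Classical monocyte-like cells also carried Mmp8, at 147 CPM (132 to 164) in the agonist and 135 CPM (121 to 151) in the isotype pool. A count was seen in 45.6% of agonist and 42.8% of isotype cells of this class, and in 12% and 11.8% after thinning. Per 1000 S100a9 counts they had 464 and 636 Mmp8 counts, against 8.01 and 7.04 in mature and 20.1 and 21.1 in immature neutrophil-like cells. Activated neutrophil-like cells had 6.8 and 4.84. A high value was not particular to classical monocyte-like cells: alveolar macrophage-like cells, with 8 agonist and 10 isotype Mmp8 counts, had 101 and 1000. The part of neutrophil RNA in the Mmp8 values was not tested. B cell-like cells had 2 Mmp8 counts in each pool and a count in 0.0937% of agonist and 0.11% of isotype cells. The log2 ratio in classical monocyte-like cells was 0.12 (-0.11 to 0.35).

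**Figure D3:**
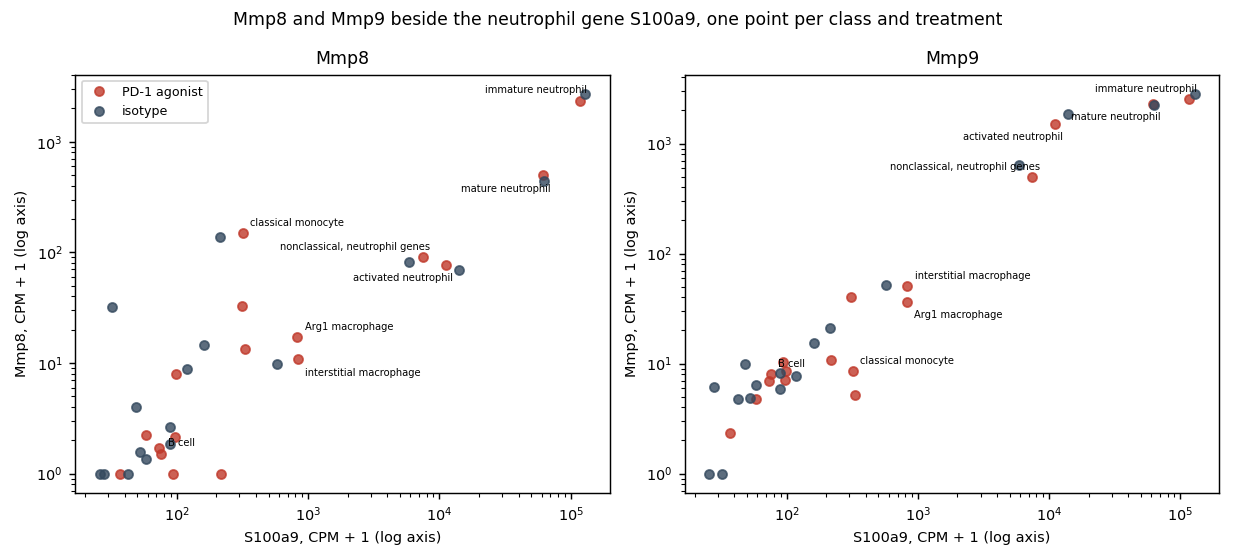
Each point is 1 class in 1 treatment (PD-1 agonist red, isotype blue), with S100a9 CPM + 1 on the horizontal and Mmp8 (left panel) or Mmp9 (right panel) CPM + 1 on the vertical log axis. For Mmp8 the classical monocyte-like points, at 147 and 135 CPM, lie well above other classes with a like S100a9 level, and for Mmp9 they do not.

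Mmp12, the macrophage elastase, was carried by few macrophages. Arg1 macrophage-like cells had 293 CPM (268 to 319.6) in the agonist and 249 CPM (227 to 274) in the isotype pool, and interstitial macrophage-like cells 138 CPM (128 to 149) and 107 CPM (99.1 to 116). A count was seen in 20.5% of agonist and 21.6% of isotype Arg1 macrophage-like cells. In that class 50% of the counts came from 6 agonist and 7 isotype cells, and the top cell held 75 and 58 counts. In interstitial macrophage-like cells 15 agonist and 13 isotype cells held 50%. Intervals that treat molecules as independent are too narrow for counts gathered in so few cells.

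The finer clustering moved 56 agonist and 41 isotype interstitial macrophage-like cells to the type 2 conventional dendritic cell (cDC2)-like class. They held 33.1% and 18.5% of the Mmp12 counts of the interstitial macrophage-like class, at 609 and 359.9 CPM. Ccl17, a chemokine of dendritic cells and macrophages, stood at 2680 and 2380 CPM in them, against 56.7 and 31.3 CPM in the cells that stayed, and the complement gene C1qa at 150.3 and 183 CPM, against 1513 and 1560 CPM. The cells that stayed had 90.6 CPM of Mmp12 in the agonist and 78.5 CPM in the isotype pool. Cells that were cDC2-like in both clusterings had Ccl17 at 549 and 705 CPM and C1qa at 10.3 and 13.2 CPM. Their Mmp12 was at 26.2 CPM in the agonist and 13.6 CPM in the isotype pool. In these genes the moved cells thus differed from both the cells that stayed and the other cDC2-like cells. Another 27 agonist and 13 isotype cells moved to the Arg1 macrophage-like class. They held 8.19% and 14.6% of the Mmp12 counts, at 439 and 1332 CPM, in 10 and 6 cells with a count. The moved cells, and Ccl17 and C1qa, were singled out after their values were seen.

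Across all kept cells Mmp12 had 38.5 CPM in the agonist and 32.5 CPM in the isotype pool, a log2 ratio of 0.25 (0.13 to 0.36), and the 3 agonist tables gave 39.4, 40.2 and 38.5 CPM and the 3 isotype tables had 32.8, 32.3 and 33 CPM. The agonist tables were all above the isotype tables, but tables of the same pool share cells and are not replicates. In interstitial macrophage-like cells the ratio was 0.36 (0.21 to 0.52), and the 3 agonist tables gave 158, 126 and 105 CPM and the 3 isotype tables had 86.3, 113 and 114 CPM, which overlap. It was 0.21 with the finer clustering. In Arg1 macrophage-like cells it was 0.23 (0.05 to 0.42), and the 3 agonist tables gave 257, 396 and 358 CPM and the 3 isotype tables had 301, 209 and 247 CPM, which overlap too. Leaving out agonist replicate 1 gave 0.50 there.

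Mmp14, a membrane-anchored MMP that activates other MMPs, was spread over many macrophages. Arg1 macrophage-like cells had 264 CPM (240.4 to 289) in the agonist and 250.4 CPM (228 to 275) in the isotype pool, with a count in 69.4% of agonist and 72.7% of isotype cells. Interstitial macrophage-like cells had 179.7 CPM (168 to 192) and 193 CPM (182 to 205), and held 60.1% of agonist and 65.6% of isotype Mmp14 counts. The top cell of that class held 11 and 10 counts, and 50% of the counts came from 118 agonist and 129 isotype cells. Across all kept cells the 3 agonist tables gave 40.3, 46 and 47.1 CPM and the 3 isotype tables had 46.8, 41.4 and 46.9 CPM. The log2 ratio was 0.08 (-0.12 to 0.27) in Arg1 and -0.10 (-0.23 to 0.02) in interstitial macrophage-like cells, so no difference was detectable at this depth. Alveolar macrophage-like cells (32 agonist and 37 isotype) had 27.5 CPM (11.1 to 56.6) and 15.6 CPM (5.07 to 36.4), below both classes.

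Mmp19, a secreted MMP, was also highest in Arg1 macrophage-like cells, at 202 CPM (181 to 224) in the agonist and 208 CPM (188 to 231) in the isotype pool. They held 40.6% of agonist and 40.4% of isotype Mmp19 counts. Alveolar macrophage-like cells had 109.9 CPM (73.1 to 159) and 71.8 CPM (45.5 to 108), interstitial macrophage-like cells 58.8 CPM (52.5 to 65.7) and 53.6 CPM (47.8 to 60), and classical monocyte-like cells 36 CPM (28.4 to 45) and 48.9 CPM (40.3 to 58.9). The intervals of neighbours in this order overlapped in the isotype pool between alveolar and interstitial and between interstitial and classical monocyte-like cells, and did not in the agonist pool. The log2 ratio was -0.04 (-0.18 to 0.09) over all kept cells, where the 3 agonist tables gave 23, 23.6 and 24.9 CPM and the 3 isotype tables had 24.9, 26.5 and 25.7 CPM, and -0.44 (-0.88 to -0.01) in classical monocyte-like cells.

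Mmp13, a collagenase, was close to the limit of detection. It had 26 agonist and 74 isotype counts in 16 agonist and 26 isotype cells, of which 12 agonist and 45 isotype counts were in interstitial and 9 agonist and 11 isotype in Arg1 macrophage-like cells. The log2 ratio was -1.47 (-2.17 to -0.81) over all kept cells, where the 3 agonist tables gave 0.79, 0.847 and 1.16 CPM and the 3 isotype tables had 2.08, 2.31 and 3.04 CPM, and -1.80 (-2.85 to -0.85) in interstitial macrophage-like cells. The difference was not seen without the cell filter, where the ratio was -0.16 over all cells and 0.07 in interstitial macrophage-like cells. Barcodes with over 4000 genes, which the filter leaves out, held 58 Mmp13 counts in the agonist and 31 in the isotype pool. Neutrophil-like cells of all 3 classes had 0 counts. In mature neutrophil-like cells this allows up to 1.24 CPM in the agonist and 1.73 CPM in the isotype pool. In immature neutrophil-like cells it allows up to 12.9 and 13.95 CPM, above the Mmp13 levels of interstitial (2.26 and 7.86 CPM) and Arg1 macrophage-like cells (5.14 and 6.16 CPM). The 0 of the immature class therefore cannot show absence.

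Timp1, a secreted inhibitor of most MMPs, was highest in Arg1 and interstitial macrophage-like cells, which also carried Mmp12, Mmp14 and Mmp19. Alveolar macrophage-like cells (32 agonist and 37 isotype), which carried Mmp19 too, had 0 agonist and 4 isotype Timp1 counts. The 0 allows up to 11.8 CPM. Arg1 macrophage-like cells had 89.1 CPM (75.7 to 104) in the agonist and 125 CPM (109 to 142) in the isotype pool, and interstitial macrophage-like cells 43.7 CPM (38.3 to 49.8) and 29.7 CPM (25.4 to 34.5). The direction between treatments was opposite: the log2 ratio was -0.49 (-0.79 to -0.19) in Arg1 and 0.56 (0.27 to 0.85) in interstitial macrophage-like cells. The difference between these ratios was not tested.

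In Arg1 macrophage-like cells the 3 agonist tables gave 84.1, 82.7 and 77.7 CPM and the 3 isotype tables had 113, 112 and 142 CPM. In interstitial macrophage-like cells the 3 agonist tables gave 42.8, 40.9 and 40.5 CPM and the 3 isotype tables had 23.2, 30.3 and 38.2 CPM. The tables of the pools did not overlap in either class, but tables of the same pool share cells and are not replicates. In addition, 50% of the counts came from 9 agonist and 9 isotype Arg1 and 15 agonist and 12 isotype interstitial macrophage-like cells. With the finer clustering the ratio was -0.24 in Arg1 macrophage-like cells, and in interstitial macrophage-like cells it was 0.30 without agonist replicate 1. Across all kept cells Timp1 had 12.8 CPM in the agonist and 13.5 CPM in the isotype pool, a log2 ratio of -0.08 (-0.27 to 0.11). Fibroblast markers, listed because fibroblasts are a known source of Timp1, summed to 3.43 and 3.36 CPM in Arg1 and 32.8 and 32.5 CPM in interstitial macrophage-like cells. The CD45+ sort would leave fibroblasts out, and the part of fibroblast RNA in the Timp1 values was not tested.

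Timp2, an inhibitor that also assists Mmp14 in activating Mmp2, was more widely spread than Timp1. Activated neutrophil-like cells had 290.1 CPM (263 to 319.5) in the agonist and 269 CPM (246 to 294) in the isotype pool, and mature neutrophil-like cells 152 CPM (137 to 169) and 143 CPM (126 to 162). In the activated class the 3 agonist tables gave 252, 314 and 294 CPM and the 3 isotype tables had 224, 262 and 269 CPM, which overlap, and the log2 ratio was 0.11 (-0.09 to 0.30). Across all kept cells it was 0.04 (-0.05 to 0.13), with 55.8 CPM in the agonist and 54.4 CPM in the isotype pool. In immature neutrophil-like cells Timp2 had 30 agonist and 49 isotype counts and a ratio of -0.83 (-1.53 to -0.14), which was -0.55, under 1.5-fold, without the cell filter.

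Within the activated neutrophil-like class Timp2 was uneven. The cluster led by Rab15 and Fnip2 (225 agonist and 220 isotype cells) had 689.8 (618 to 768) CPM in the agonist and 679 (613 to 749.7) CPM in the isotype pool. The genes leading it were not on the list of activated neutrophil markers. The cluster led by Il1a and Cxcl2 (513 agonist and 619 isotype cells) had 82.7 (65.4 to 103) and 86.6 (71.3 to 104) CPM. Within the activated class Timp2 was thus high in the cluster where Mmp9 was low, in both pools. The mature clusters led by Slpi, Stfa2l1 and Retnlg had Timp2 at 86.55, 154 and 207.5 CPM in the agonist pool. In the isotype pool they had 101, 157 and 212 CPM. The Retnlg-led cluster had both the most Timp2 and the most Mmp9 of the mature clusters, so the opposite order did not hold for all neutrophil-like clusters.

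Timp2 was also present in lymphoid and plasmacytoid classes. Plasmacytoid dendritic cell (pDC)-like cells had 74.9 CPM (56.6 to 97.2) in the agonist and 89.2 CPM (67.2 to 116) in the isotype pool, natural killer (NK) cell-like cells 46.4 CPM (40.1 to 53.4) and 52.3 CPM (45.7 to 59.6), and T cell-like cells 31.4 CPM (27.4 to 35.9) and 30.6 CPM (26.9 to 34.6). B cell-like cells had 4.9 CPM (2.95 to 7.65) and 5.84 CPM (3.61 to 8.93), below these in both pools. Arg1 macrophage-like cells had 66.3 CPM in the agonist and 68.9 CPM in the isotype pool, and interstitial macrophage-like cells 65.2 and 55.7 CPM. Their intervals overlapped those of pDC-like cells in both pools, except for interstitial macrophage-like cells in the isotype pool.

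Over all kept cells 1 of the 8 members, Mmp13, was at or past 1.5-fold, against 8.11% of the 15109 genes with at least 50 counts over both pools. In single classes 41 pairs of a member and a class had that many counts, of which 5 were past 1.5-fold higher and 4 lower in the agonist pool, and 22 intervals included 0. Those not yet given were Mmp14 in activated neutrophil-like cells (37 agonist and 19 isotype counts, log2 ratio 1.34 (0.51 to 2.23)), Mmp12 in cDC2-like cells (69 agonist and 32 isotype counts, 0.95 (0.32 to 1.60)), Timp1 in cDC2-like cells (35 agonist and 56 isotype counts, -0.84 (-1.49 to -0.21)) and Mmp19 in alveolar macrophage-like cells (28 agonist and 23 isotype counts, 0.62 (-0.23 to 1.48)). Of the Mmp14 counts in activated neutrophil-like cells, 50% came from 3 agonist and 5 isotype cells. In cDC2-like cells the Mmp12 ratio was 0.47 with called doublets kept, and that of Timp1 -0.41 without agonist replicate 1. The Mmp19 ratio in alveolar macrophage-like cells fell under 1.5-fold without agonist replicate 1 (0.31), agonist replicate 2 (0.50) or isotype replicate 2 (0.32), and without the top cell of each treatment (0.53).

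The share of all tested genes at or past 1.5-fold was 19.3% in immature, 10.8% in mature and 9.33% in activated neutrophil-like cells, where 1 of 3, 0 of 3 and 1 of 4 members with enough counts were past it. It was 8.57% in interstitial (1 of 8 members), 9.06% in Arg1 (1 of 6) and 16.8% in alveolar macrophage-like cells (1 of 1). Classical monocyte-like cells had 9.83% (1 of 4 members), the mixed monocyte cluster 10.2% (0 of 4) and cDC2-like cells 8.93% (2 of 4). The share was 11.0% in pDC-like (0 of 1), 7.94% in T cell-like (1 of 2) and 7.66% in NK cell-like cells (0 of 1).

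**Figure D4:**
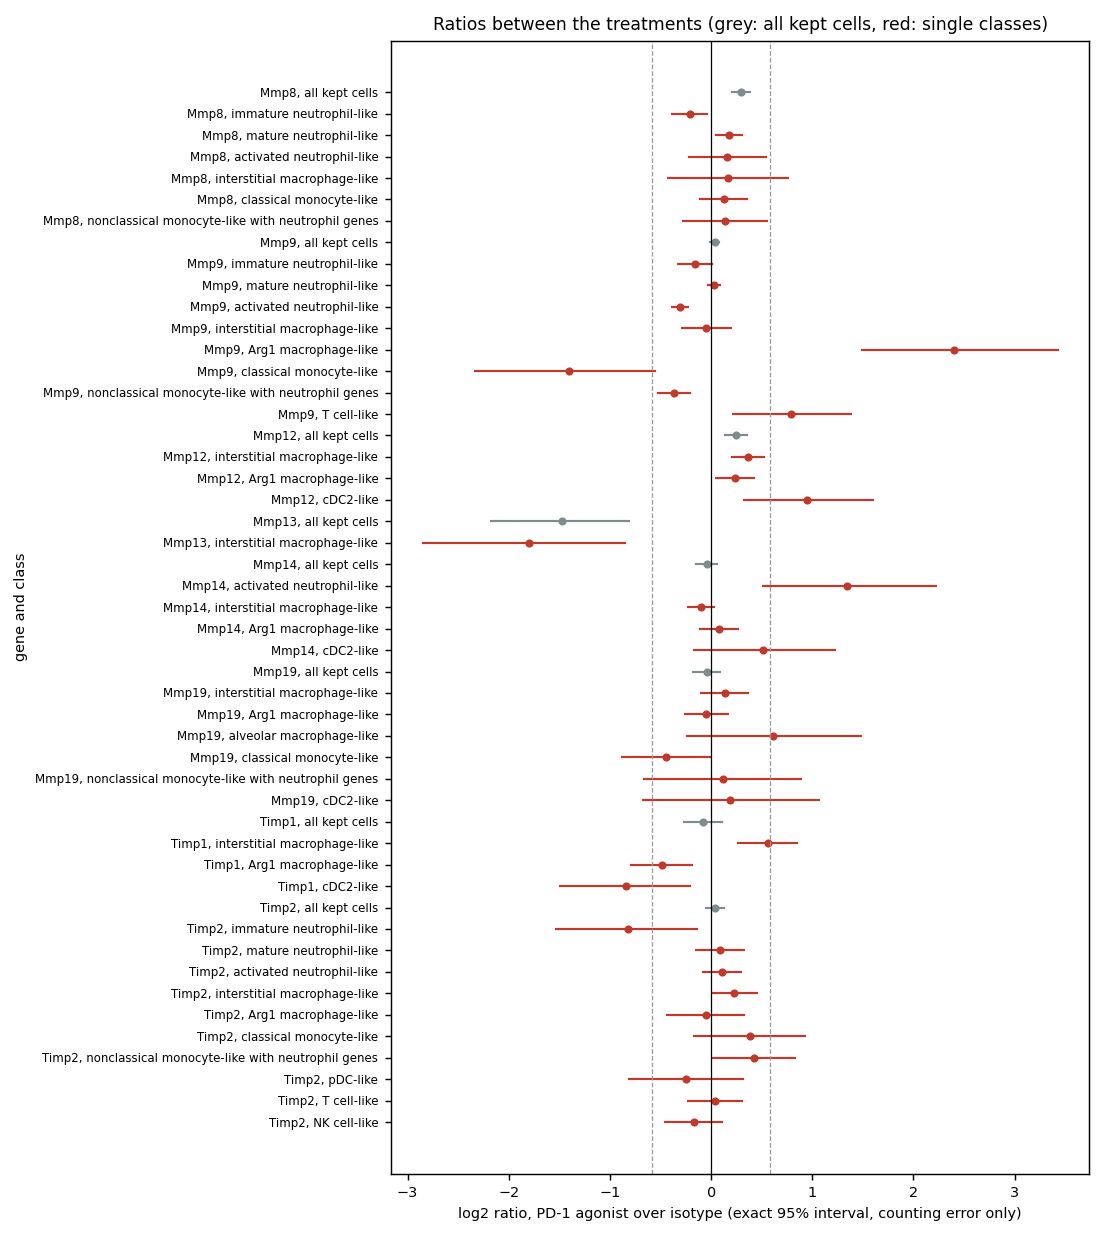
Each point is a log2 ratio of PD-1 agonist over isotype with its exact 95% interval, for the 8 members over all kept cells (grey) and in single classes with at least 50 counts (red). Dashed lines mark 1.5-fold. Of the 41 class points 32 lie between the lines, and the farthest are Mmp9 in Arg1 (2.40) and Mmp13 in interstitial macrophage-like cells (-1.80).

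Over all kept cells 8.11% of all genes with enough counts were at or past 1.5-fold in either direction, the background for the lists that follow. Of 15 Mmp columns 7 had enough counts, of which 0 were past 1.5-fold higher and 1 lower. Their median log2 ratio was 0.02, beside -0.02 for all genes. Mmp25, a membrane-anchored MMP of leukocytes, was the one of the 7 outside the 8 members. It had 27.1 CPM in the agonist and 26.6 CPM in the isotype pool. Of 5 measured inhibitors 0 were past 1.5-fold in either direction, with a median of 0.04. Slpi, an inhibitor of neutrophil elastase, had 284 CPM in the agonist and 241 CPM in the isotype pool (0.24 (0.20 to 0.28)), and Reck, a membrane-bound MMP inhibitor, 3.56 CPM in the agonist and 4.47 CPM in the isotype pool (-0.33 (-0.68 to 0.01)).

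Of 12 measured activators and partners 0 were past 1.5-fold higher and 1 lower (median -0.04). The lower one was Plau, the urokinase that starts plasmin-driven MMP activation, with 7.72 CPM in the agonist and 12.6 CPM in the isotype pool (-0.71 (-0.93 to -0.49)). Its receptor Plaur had 272 CPM in the agonist and 236 CPM in the isotype pool, and Lcn2, a neutrophil granule protein, 159.5 CPM in the agonist and 125 CPM in the isotype pool (0.35 (0.29 to 0.40)). Of 7 measured ADAM genes 0 were past 1.5-fold higher and 1, Adamdec1, lower (55 agonist and 101 isotype counts, -0.84 (-1.34 to -0.35); list median -0.05). Of 4 measured matrix genes 0 were past it higher and 3 lower, with a list median of -0.64, against 8.11% of all genes in either direction. The one not past it, Fn1, had by far the most counts, 8902 agonist and 8647 isotype (0.08 (0.04 to 0.12)). The 3 lower ones had few. The collagen genes Col4a1 and Col4a2 had 51 agonist and 81 isotype counts and 19 agonist and 36 isotype counts, Sparc had 21 agonist and 34 isotype counts, and the interval of Sparc (-0.66 (-1.52 to 0.17)) included 0.

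The genes whose levels ran most like those of each member were taken by Pearson correlation of log2(CPM + 10) across the 15 classes with at least 50 cells in each pool, which leaves out the immature neutrophil-like and alveolar macrophage-like cells. The classes share libraries and differ in depth. Mmp9 ran closest to Il1f9 (r = 0.99), Slc40a1, Chil1, S100a9 and Fpr1, and Mmp8 to Tnfaip6 (r = 0.97), F5, Cd177, Acta2 and Gm44165. Mmp12 ran closest to Dcstamp (r = 0.97), Mertk, Igf1, Rnase2a and Hebp1, and Mmp14 to Snx24 (r = 0.98), Mertk, Hebp1, F7 and Dcstamp. Timp1 ran closest to Mertk (r = 0.96), Dcstamp, Mmp12, Mrc1 and Gm4951, and Mmp19 to Ms4a7 (r = 0.94), Tfec, Ccl2, Trem2 and Cfb. For Timp2 the closest were Entpd1 (r = 0.88), Impact, Slc25a33, Il10rb and Hspa4l.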

How the data were processed

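Gene counts were deposited as 1 table per sample with 1 record per cell. Per the labels, they come from a pooled library of hashed cells, and the submitters' processing notes name Partek and mm10. The values are expected counts as deposited by the authors: 0.722 to 0.739% of nonzero values were not whole, and sums over cells were rounded. What aligner and counter were used was not given in the sources used here. Tables held 21556544 to 29749816 counts. Blank lines were skipped and joined records split.

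Per treatment each barcode was kept once, as the record with the highest total count. The authors' filter was inferred from their CD3e+ label: records without a value for it were left out. The records that passed had 500 to 4000 genes. Scrublet doublets (threshold 0.25, 8.5% agonist, 7.27% isotype) were removed. Cells were clustered with scanpy 1.11.5 (2000 variable genes, 30 components, Leiden resolution 1; finer, 2). A lineage name needed 3 listed markers at 2-fold and in 10% of cells, a rule set after the clusters were seen. Neutrophil-like clusters were called immature, mature or activated by the list with the highest mean log2 ratio over the other neutrophil-like clusters, without a minimum. A macrophage-like cluster was called Arg1 where a larger share of the Arg1 list than of its lineage list was enriched. Levels carry exact 95% Poisson intervals, ratios exact conditional ones, and a count of 0 allows 3 counts per class and pool. A test of 3 against 3 was planned only if tables held different cells, and was not run. TMM factors came from edgeR 4.0.16. The ratio calculation was run on simulated Poisson counts with known folds. These hold no gathering of counts in few cells and no spread between mice, so they cannot test the intervals for either. Named genes are the members, listed genes and, for members with 200 counts, the 5 most alike. The members and lists were chosen with earlier results of these data known.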

Additional observations from a re-analysis of the deposited data

How the results depend on the processing

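Over all kept cells, TMM scaling, median-of-ratios scaling, averaged records, kept doublets and removal of each gene's top cell moved none of the 8 ratios by more than its counting interval; the median of all genes lay at -0.02 with total counts, -0.003 with TMM and -0.009 with median of ratios. Without the cell filter the log2 ratios were 0.40 for Mmp8, 0.14 for Mmp9, 0.11 for Mmp12, -0.16 for Mmp13, -0.18 for Mmp14 and 0.14 for Timp2. With class shares of counts held equal, chosen after seeing the data, they were 0.066 for Mmp8 and -0.11 for Mmp9. Leaving out each table in turn gave 0.22 to 0.39 for Mmp8, -0.001 to 0.086 for Mmp9 and -1.65 to -0.94 for Mmp13. In single classes 27 of 41 ratios kept their sign under every alternative run, and of the 9 past 1.5-fold 1, Mmp14 in activated neutrophil-like cells, stayed past it under all of them. Among those 9 the direction reversed for Mmp13 in interstitial macrophage-like cells without the cell filter (0.067) and for Mmp9 in classical monocyte-like cells with doublets kept (0.25). Ratios under 1.5-fold that changed sign include Mmp19 in cDC2-like cells (-0.83 to 0.47), Mmp8 (-0.28 to 0.40) and Mmp9 (-0.40 to 0.14) in interstitial macrophage-like cells, and Timp2 in the mixed monocyte cluster (-0.09 to 0.59). The causes were not tested. The lists had 7 Mmp, 5 inhibitor, 12 activator and partner, 7 ADAM and 4 matrix genes with at least 50 counts. Of these, 0 were past 1.5-fold higher and 6 lower, and 1 was past 2-fold lower. Over all genes with at least 50 counts 8.11% were past 1.5-fold in either direction. With at least 20 counts 1 listed gene was past 1.5-fold higher and 9 lower. The share over all genes was not taken at 20 counts or at 2-fold, so these counts show no direction. No paired analysis was possible because the 3 tables of a treatment share cells and form 1 pool. With 26 agonist and 74 isotype counts, the interval of the Mmp13 ratio ran from -2.17 to -0.81.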
